A study of Mus musculus with 3 samples.

Results

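Nuclear receptors are transcription factors that bind hormones, vitamin derivatives, lipids or, for the orphan members, no known ligand, and 43 genes that encode them were followed here among 22350 protein-coding genes of the mouse. The genes were taken from a list of receptors in 6 groups by role: thyroid hormone and retinoid receptors, sensors of lipids and foreign compounds, clock-linked orphan receptors, NR2 orphan receptors, steroid and estrogen-related receptors, and NR4 to NR6 receptors. The vitamin D receptor gene Vdr was placed in the thyroid hormone and retinoid group. The rule that names these genes uses no measured value, but the list was drawn up with earlier results of these data known. ChIP-Seq of mouse embryonic stem cells (ESCs) was available as 3 libraries, 1 per group, so there was no replicate error for a comparison of libraries and no such comparison was tested.

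In the H2A.Z WT library the histone variant H2A.Z was immunoprecipitated through a C-terminal yellow fluorescent protein (YFP) tag with an anti-GFP antibody. The H2A.Z AP3 library was made in the same way from cells expressing a mutant in which 3 residues of the acidic patch, a charged surface of the nucleosome, were replaced by those of H2A. Both transgenes were delivered by lentivirus into KH2 ESCs, were driven by a doxycycline-inducible CMV promoter with rtTA, and were studied in sorted YFP-positive cells that also carried a hairpin to the 3′ untranslated region of the endogenous H2A.Z transcript, which lowers the untagged protein. The third library was made with an antibody against H3K27me3, and its genotype label is WT rather than either transgene. The labels give the V6.5 strain (129SvJae x C57BL/6) for all 3 samples although the transgenic lines are described as KH2 derivatives. The cells were grown on feeder fibroblasts and passaged without them before harvest.

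A nuclear receptor typically pairs a DNA-binding domain, which reads a short hexamer of bases, with a ligand-binding domain that recruits corepressors or coactivators. Many receptors act as heterodimers with a retinoid X receptor on hexamers in tandem, and the number of bases between the hexamers helps to select the pair. H2A.Z marks nucleosomes around promoters, and in ESCs many developmental regulators carry both H2A.Z and H3K27me3, the mark placed by Polycomb repressive complex 2.

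The sequences below show what lies at the promoters of the receptors that read retinoic acid, because the hexamer pairs of the kind bound by these receptors were found at their own genes. The hexamers were the consensus AGGTCA, the form AGTTCA, the form GGGTCA and the form GGTTCA, searched on both strands in tandem with 1 to 5 bases between them within 500 bp of every annotated start on mm9. DR5 denotes 5 bases between the hexamers, DR1 denotes 1 base, and capitals mark the hexamers. Each match is printed with its neighbouring bases, 30 in all, on the strand that reads 5′ to 3′ through the hexamers. The DR5 of Rarb at chr14:17408027-17408043, the textbook retinoic acid response element of that gene, lay on the minus strand 49 bp upstream of the start at 17407986. The DR5 of Rara at chr11:98821322-98821338 lay on the plus strand 396 bp upstream of a start, that of Rarg at chr15:102081248-102081264 on the minus strand 479 bp upstream, and that of Rxrb at chr17:34173785-34173801 on the minus strand 385 bp downstream. The DR1 of Esrra at chr19:6995807-6995819 is shown because, with that of Rarb, it was a match that fell inside an H2A.Z WT region.
Rarb DR5: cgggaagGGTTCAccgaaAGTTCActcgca
Rara DR5: caggcgAGTTCAgcaagAGTTCAgccgaat
Rarg DR5: aggtcagGGTTCAaagtgAGGTCAcggtat
Rxrb DR5: gacctgcAGGTCActcaaAGGTCAcagctc
Esrra DR1: ctcctctctGGGTCAtAGGTCAtcgtagcg

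The search over all starts found 10 matches at 7 of the 43 genes, and the 4 DR5 matches were all at retinoid receptor genes. The share of all genes with a match at any start was not counted, and receptors had more starts per gene. The other matches were 2 DR2 at Nr2c2, a DR1 at Rxra, a DR4 at Rxrb and a DR1 at Rarg that shares bases with the DR5 of that gene. A DR5 lay within 500 bp of 5 of 222 receptor starts (2.25%) and of 202 of 70018 starts over all genes (0.288%), and starts of 1 gene can share a match. At the most upstream start of each gene the picture was different, with any of the 5 spacings at 1 of 43 receptors (2.33%) and at 1.77% of all genes, and DR5 at 0 receptors and 0.268% of all genes. The single hexamer AGGTCA was within 500 bp of that start in 22 of the 43 receptors (51.2%) and in 41.8% of all genes. None of the 10 matches lay in an H2A.Z AP3 or H3K27me3 region. A match is a description of the letters and not a measurement of receptor binding.

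Further sequences belong to the primers used by the study for ChIP-PCR at Thra, the gene of thyroid hormone receptor alpha, and they place that assay on the region lists.
Thra forward: tcgcgattgattatgcaaag
Thra reverse: ccgaccacttaacagcacct
The primers matched chr11:98603362-98603381 on the plus strand and chr11:98603515-98603534 on the minus strand, around the start at 98603472, and bound a product of 173 bp. Of this product 109 bp lay in an H2A.Z WT region of 150 bp (chr11:98603426-98603575, an untranslated exon of Thra). The nearest H2A.Z AP3 region was 3562 bp away and the nearest H3K27me3 region 50667 bp away.

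The deposited lists give the coordinates of regions called enriched over input in each library at a P threshold of 1e-9, on a grid of 25 bp, with no heights or read counts. The H2A.Z WT list holds 78359 regions, that of the mutant 14599 and that of H3K27me3 16970. The depth behind each list is unknown, so a gene without a region may have carried less of the protein or may have been read less deeply, and these cannot be told apart. A gene was scored as carrying a region when at least 1 bp of it lay within 2 kb of any of its starts, and the covered length is the number of bases of that window inside regions. Windows were longer for the receptors (median 8652 bp, from a median of 5 starts) than for all protein-coding genes (median 4053 bp, 2 starts), which gave the receptors more sequence in which a region could be found.

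H2A.Z WT was found at 40 of the 43 receptor genes (93.0%, 95% Wilson interval 81.4 to 97.6), compared with 61.7% of all protein-coding genes. H3K27me3 was found at 22 receptors (51.2%, interval 36.8 to 65.4), against 18.2% of all genes. H2A.Z AP3 was found at 17 receptors (39.5%, interval 26.4 to 54.4), where the share over all genes was 23.2%. The 3 lower bounds lay above the corresponding shares of all genes, and these intervals cover counting error only. For H2A.Z AP3 this did not hold in other settings. With lists named for a threshold of 1e-12 its lower bound was 16.7%, against 18.8% of all genes. With starts of protein-coding transcripts alone it was 20.5%, against 22.3%, and with a minimum of 100 bp 14.9%, against 18.7%. With the most upstream start alone, so that each gene had 1 window of equal length, H2A.Z WT was at 86.0% of receptors and 58.8% of all genes and H3K27me3 at 41.9% and 16.9%. H2A.Z AP3 was then at 20.9% of receptors and 20.8% of all genes. That setting changes both the length of the window and the starts considered, and 6 receptors had H2A.Z AP3 at a downstream start group alone, so the parts of these choices cannot be told apart.

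Each of the 17 receptors with H2A.Z AP3 and each of the 22 with H3K27me3 also had H2A.Z WT, and over all genes this held for 94.5% of those with H2A.Z AP3 and 95.2% of those with H3K27me3. All 3 were present at 12 receptors, H2A.Z WT and H3K27me3 without H2A.Z AP3 at 10, H2A.Z WT and H2A.Z AP3 without H3K27me3 at 5, and H2A.Z WT alone at 13. The libraries came from different cells, and that of H3K27me3 is not labelled as the mutant line. Overlaps between the lists, here and below, therefore do not show the proteins together in the same cells. Rxrb, Nr1h4 and Hnf4g had none of the 3. Among receptors with H2A.Z WT, H3K27me3 was present at 22 of 40 (55.0%, interval 39.8 to 69.3), against 28.0% of all genes with H2A.Z WT. H2A.Z AP3 was present at 17 of those 40 (42.5%, interval 28.5 to 57.8), an interval that holds the 35.5% of all genes with H2A.Z WT.

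H2A.Z AP3 was at 12 of the 22 receptors with H2A.Z WT and H3K27me3 (54.5%, interval 34.7 to 73.1), and at 45.7% of all genes with both. It was at 5 of the 18 receptors with H2A.Z WT and no H3K27me3 (27.8%, interval 12.5 to 50.9), and at 31.5% of all such genes. The intervals of these shares overlap each other, and each holds the corresponding value over all genes. The difference between receptors with and without H3K27me3 was not tested.

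**Figure D1:**
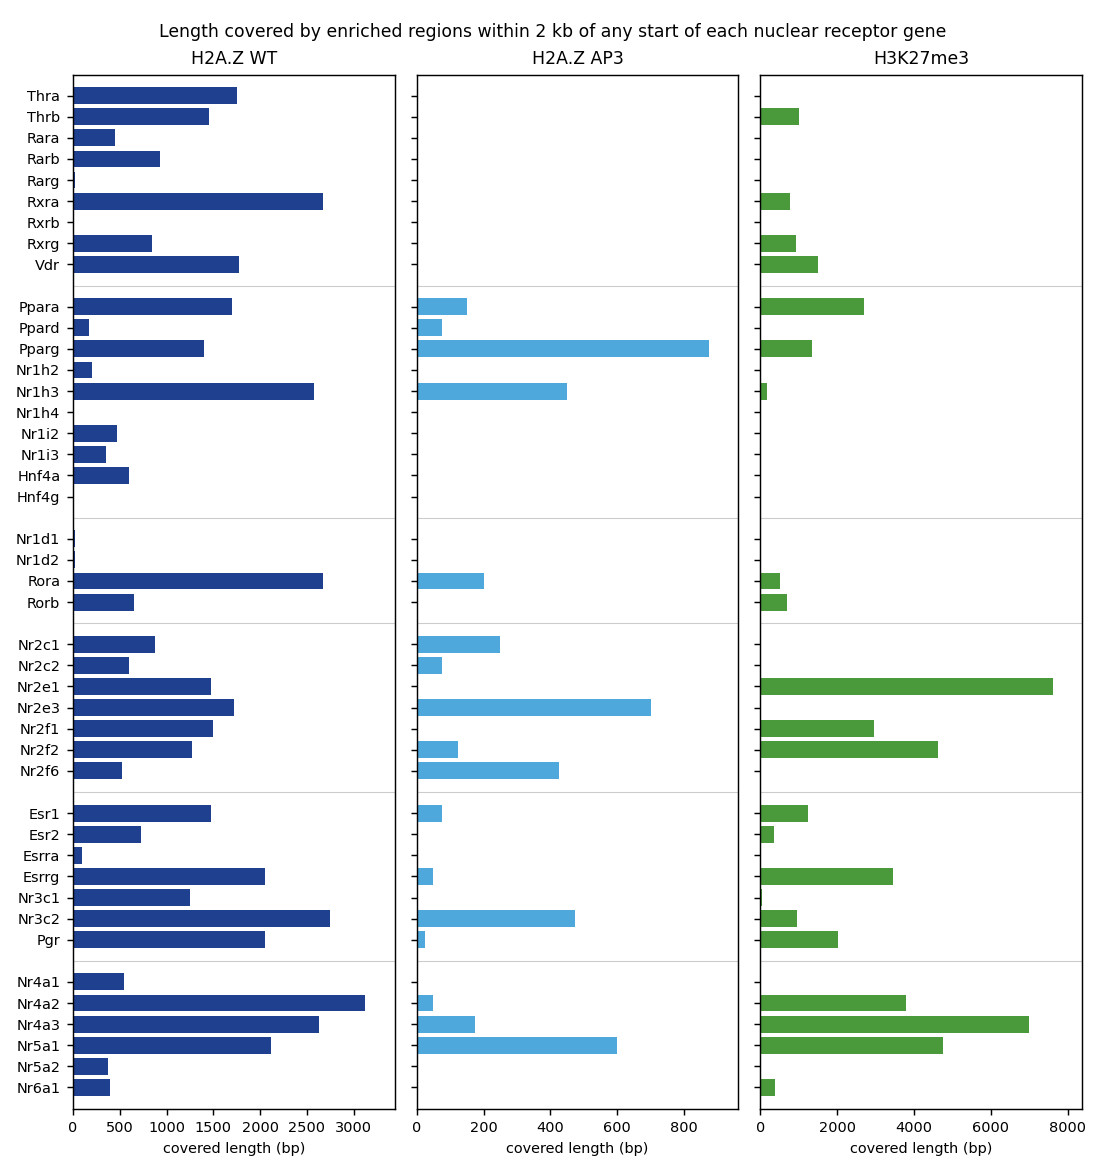
Length in bp covered by enriched regions within 2 kb of any start of each receptor gene, 1 bar per gene and 1 panel per library, grouped by role with the thyroid hormone and retinoid receptors at the top; each panel has its own scale and each bar is 1 library. H2A.Z WT reached 3125 bp at Nr4a2 and H3K27me3 reached 7613 bp at Nr2e1. H2A.Z AP3 reached 875 bp at Pparg and was 0 bp at the 9 genes of the thyroid hormone and retinoid group, which includes Vdr.

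The 43 genes carried 48304 bp of H2A.Z WT, 4777 bp of H2A.Z AP3 and 48794 bp of H3K27me3. As a share of the windows this was 11.1% for H2A.Z WT against 7.55% over all genes, 1.09% for H2A.Z AP3 against 1.08%, and 11.2% for H3K27me3 against 3.57%. The H2A.Z AP3 length thus equalled 9.89% of the H2A.Z WT length at the receptors and 14.3% over all genes, whether or not the regions overlapped. Receptors with H3K27me3 had longer H2A.Z WT coverage (median 1600 bp, range 400 to 3125 bp, 22 genes) than receptors with H2A.Z WT and no H3K27me3 (median 462.5 bp, range 25 to 1749 bp, 18 genes). The ranges overlap, and over all genes the same medians were 1100 bp and 550 bp. Across the 43 genes the covered lengths of H2A.Z WT and H3K27me3 had a Spearman correlation of 0.73, and those of the WT and AP3 proteins of 0.53. Each point is 1 gene, with all its values from the same window. The H2A.Z WT length had a correlation of 0.34 with the window length and of 0.37 with the CpG count, the H3K27me3 length had 0.18 and 0.28, and the part of either in the above values was not tested.

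The thyroid hormone and retinoid receptors, grouped with Vdr, stood at one end of the H2A.Z AP3 values. H2A.Z WT was at 8 of these 9 genes with a median of 925 bp, H3K27me3 was at 4, and H2A.Z AP3 was at 0. The shares over all protein-coding genes, which also stand beside the counts of the groups below, were 61.7%, 18.2% and 23.2%. The thyroid hormone and retinoid group was singled out after its values were seen, and a count of 0 of 9 was not tested. Within 5 kb of a start, H2A.Z AP3 regions were found at Thra, Rara, Rxrb and Vdr, and with windows of 2 kb the further H2A.Z AP3 list, named for a threshold of 1e-12, had one at Thrb, of 175 bp, so the count of 0 holds for the 1e-9 list and windows of 2 kb. At Thra, which mediates much of the action of thyroid hormone in heart and brain, H2A.Z WT covered 1749 bp in 4 regions and neither of the other libraries had a region. The nearest H2A.Z AP3 region, chr11:98599676-98599800, lay 2152 bp upstream of the first start and shared 50 bp with an H2A.Z WT region of 750 bp.

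Thrb, the thyroid hormone receptor needed for feedback in the pituitary, had 1450 bp of H2A.Z WT, 0 bp of H2A.Z AP3 and 1000 bp of H3K27me3, all at the most upstream of its 3 starts. The other starts, 320684 and 340325 bp downstream, had no region in any library. Rarb, a retinoic acid receptor induced by its own ligand, had the opposite arrangement. Its most upstream start at 17651381 had no region, and 925 bp of H2A.Z WT lay across the start 243395 bp downstream (chr14:17407451-17408375), where the DR5 printed above is inside the region. No H2A.Z AP3 or H3K27me3 region was within 2 kb of either start of Rarb.

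Rara and Rarg, the other retinoic acid receptors, had 450 bp and 25 bp of H2A.Z WT and no other region. At Rara the H2A.Z WT bases were at 2 of 4 start groups, the first and the one 32594 bp downstream, and at Rarg a single bin of 25 bp lay at the first group. Neither DR5 of these genes was inside a region. Among the retinoid X receptors, the shared heterodimer partners, Rxra had 2675 bp of H2A.Z WT and 782 bp of H3K27me3, Rxrg had 840 bp and 925 bp, and Rxrb had no region. At Rxra the H2A.Z WT bases were divided between the first start group (1275 bp) and a start 63761 bp downstream (1400 bp), of which the first alone had H3K27me3. Rxrb also had no H2A.Z WT region nearer than 3832 bp. Its starts had up to 128 CpG dinucleotides in 1001 bp, and its windows hold a start of the neighbouring gene Slc39a7. Vdr, the vitamin D receptor, had 1775 bp of H2A.Z WT and 1500 bp of H3K27me3.

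The sensors of lipids, bile acids and foreign compounds had H2A.Z WT at 8 of 10 genes (median 412 bp), H2A.Z AP3 at 4 and H3K27me3 at 3. Pparg, the receptor that drives fat cell differentiation, had the longest H2A.Z AP3 coverage of all 43 genes. It carried 1400 bp of H2A.Z WT (chr6:115311076-115312475), 875 bp of H2A.Z AP3 (chr6:115311201-115312075) and 1350 bp of H3K27me3, of which 825 bp formed 1 region starting at the same base as that of H2A.Z AP3. H2A.Z AP3 covered 62.5% of the H2A.Z WT length there. All of it lay at the upstream start, mainly in the first intron, and the start 60845 bp downstream had no region in any library.

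Ppara, the receptor of fatty acid oxidation in liver, had 1700 bp of H2A.Z WT, 150 bp of H2A.Z AP3 (chr15:85565376-85565525, a noncoding exon) and 2688 bp of H3K27me3. Ppard had 175 bp of H2A.Z WT and 77 bp of H2A.Z AP3 in its window, but the H2A.Z AP3 region (chr17:28367401-28367775, outside genes) did not touch H2A.Z WT and its midpoint was 2111 bp upstream of the start. Nr1h3, the oxysterol receptor LXR alpha, had 2575 bp, 450 bp (chr2:91034976-91035425, an untranslated exon) and 175 bp in the same order, and its windows also hold a start of Acp2. The H2A.Z AP3 bases of Nr1h3 were at its downstream start group, inside an H2A.Z WT region of 725 bp. The 3 peroxisome proliferator-activated receptors therefore all had both forms of H2A.Z, which overlapped at Ppara and Pparg and not at Ppard.

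H2A.Z WT alone was found at Nr1h2 (200 bp), Nr1i2 (475 bp), Nr1i3 (350 bp) and Hnf4a (600 bp). Nr1h2 encodes the second oxysterol receptor, Nr1i2 and Nr1i3 the xenobiotic receptors of liver, and Hnf4a a regulator of liver and gut genes. At Hnf4a the first start group had 0 bp and the groups 30211 and 40009 bp downstream had 500 bp and 100 bp. Nr1h4, the bile acid receptor, and Hnf4g had no region, and the nearest H2A.Z WT regions were 47419 and 198780 bp away. Nr1h4 and Hnf4g had at most 17 and 31 CpG in 1001 bp at a start, and the receptor median was 72. Nr1i2, Nr1i3 and Hnf4a, which carried H2A.Z WT, had 9, 17 and 24, and Rxrb, which had no region, had 128. The part of CpG content in these calls was not tested.

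The clock-linked receptors had H2A.Z WT at 4 of 4 genes (median 338 bp), H3K27me3 at 2 and H2A.Z AP3 at 1. Nr1d1 and Nr1d2, the REV-ERB repressors of the circadian clock, had 25 bp of H2A.Z WT each and nothing else. Rora, an activator that competes for the same DNA elements, had 2675 bp of H2A.Z WT, 200 bp of H2A.Z AP3 (chr9:68501176-68501375, outside genes) and 500 bp of H3K27me3. Its H2A.Z WT was at the first start group (975 bp) and at a start 635896 bp downstream (1700 bp), and H2A.Z AP3 was at the first. Rorb had 650 bp of H2A.Z WT and 690 bp of H3K27me3, and the regions of these libraries did not overlap.

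The NR2 orphan receptors had H2A.Z WT at 7 of 7 genes (median 1272 bp), H2A.Z AP3 at 5 and H3K27me3 at 3. Nr2e1, the tailless homologue of neural stem cells, had the longest H3K27me3 region in any receptor window, chr10:42296401-42308950, of 12550 bp. It covered 7613 bp of the windows together with smaller regions, and all 1475 bp of H2A.Z WT lay within it, without H2A.Z AP3. The windows of Nr2e1 also hold a start of Ostm1. Nr2f1 and Nr2f2, the COUP-TF regulators of neural and vascular development, had 1500 and 1272 bp of H2A.Z WT and 2950 and 4622 bp of H3K27me3. H2A.Z AP3 was 0 bp at Nr2f1 and 125 bp at Nr2f2 (chr7:77504826-77504950, a coding exon). The third longest H3K27me3 region, of 2975 bp, lay upstream of Nr2f2 at chr7:77512526-77515500.

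The other NR2 genes had H2A.Z AP3 and no H3K27me3. Nr2e3, a photoreceptor regulator, had 1725 bp of H2A.Z WT, including a region of 1525 bp (chr9:59796001-59797525), and 700 bp of H2A.Z AP3 in regions of 625 bp (chr9:59796526-59797150) and 75 bp (chr9:59797801-59797875). The larger region was inside H2A.Z WT and the smaller was not. Nr2c1 and Nr2c2, the testicular receptors, had 875 and 600 bp of H2A.Z WT and 250 bp (chr10:93610351-93610600) and 75 bp (chr6:92041101-92041175) of H2A.Z AP3, each inside H2A.Z WT and upstream of the start. Nr2f6 had the highest ratio of H2A.Z AP3 to H2A.Z WT length, 81.0%, from 425 bp and 525 bp, but these did not coincide. Its H2A.Z AP3 region (chr8:73899626-73900050, a coding exon) was at a start 6170 bp downstream of the most upstream start, and the H2A.Z WT regions were at the upstream group.

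**Figure D2:**
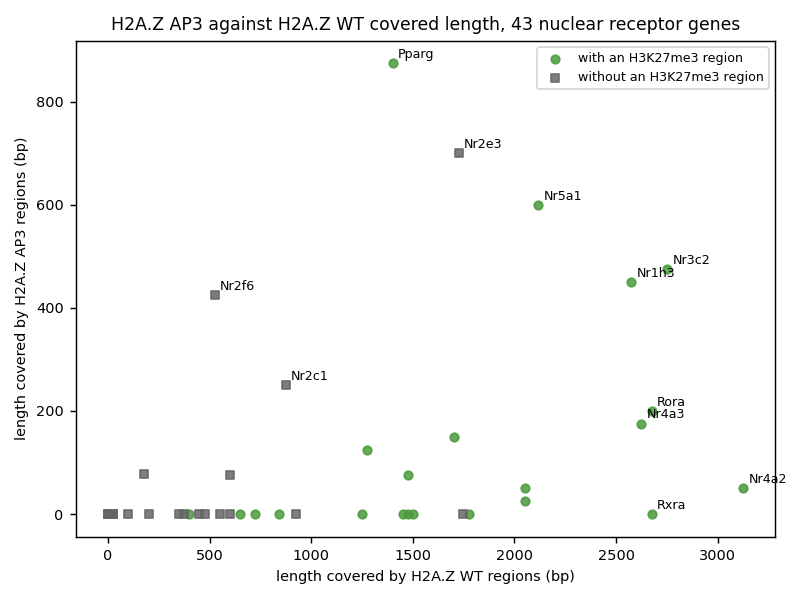
Covered length of H2A.Z AP3 (y axis, bp) against H2A.Z WT (x axis, bp) for the 43 receptor genes, with circles for genes that had an H3K27me3 region and squares for those without; each point is 1 gene in 1 library of each kind. Pparg (1400 and 875 bp), Nr2e3 (1725 and 700 bp) and Nr5a1 (2118 and 600 bp) are the highest, while Nr4a2, with the most H2A.Z WT (3125 bp), had 50 bp of H2A.Z AP3.

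The steroid and estrogen-related receptors had H2A.Z WT at 7 of 7 genes (median 1475 bp), H3K27me3 at 6 and H2A.Z AP3 at 4. Pgr, the progesterone receptor, had the longest single H2A.Z WT region of any receptor window, of 2050 bp (chr9:8900176-8902225), with 2025 bp of H3K27me3 and 25 bp of H2A.Z AP3 (chr9:8902151-8902175). Nr3c2, the mineralocorticoid receptor, had 2750 bp of H2A.Z WT, among it a region of 1700 bp (chr8:79423326-79425025), and 950 bp of H3K27me3. Its 475 bp of H2A.Z AP3 formed 3 regions, chr8:79422826-79422900, chr8:79425501-79425700 and chr8:79426301-79426500, each inside H2A.Z WT. Nr3c1, the glucocorticoid receptor, had 1250 bp of H2A.Z WT, 50 bp of H3K27me3 and no H2A.Z AP3.

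Esr1, the receptor for estrogen in uterus and breast, had 1475 bp of H2A.Z WT, 75 bp of H2A.Z AP3 (chr10:5634076-5634150, a coding exon) and 1250 bp of H3K27me3. The first of its 4 start groups had only 150 bp of H2A.Z WT, and the group 98562 bp downstream held the other 1325 bp and all the H2A.Z AP3 and H3K27me3. Esr2 had 725 bp of H2A.Z WT and 350 bp of H3K27me3. Of the estrogen-related receptors, Esrra, a regulator of mitochondrial genes, had 100 bp of H2A.Z WT that contained the DR1 printed above, and Esrrg had 2050 bp of H2A.Z WT and 3456 bp of H3K27me3. Esrrg had 25 bp of H2A.Z AP3 at each of 2 start groups, chr1:189433651-189433675 and chr1:189822001-189822025, and the first did not touch H2A.Z WT.

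The NR4 to NR6 receptors had H2A.Z WT at 6 of 6 genes (median 1334 bp), H3K27me3 at 4 and H2A.Z AP3 at 3. The NR4A genes are immediate early genes that respond to many stimuli, and they were not alike in these libraries. Nr4a2, needed for dopamine neurons, had 3125 bp of H2A.Z WT, 50 bp of H2A.Z AP3 (chr2:56969126-56969175) and 3800 bp of H3K27me3, and all of the latter pair were at the start group 8965 bp downstream of the first. Nr4a3 had 2625, 175 (chr4:48064926-48065100, a coding exon) and 7000 bp, and Nr4a1 had 550 bp of H2A.Z WT alone.

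Nr5a1, the steroidogenic factor of adrenal and gonad, had 2118 bp of H2A.Z WT, 600 bp of H2A.Z AP3 and 4743 bp of H3K27me3 within its window. Most of the latter came from 1 region of 5350 bp (chr2:38564051-38569400), the second longest of the receptors, which runs beyond the window. Its H2A.Z AP3 regions, chr2:38565801-38566325 in a coding exon and chr2:38567076-38567150 in an intron, both lay inside H3K27me3, and 475 of the 525 bp of the former lay in H2A.Z WT. Nr5a2, the related factor expressed in ESCs, had 375 bp of H2A.Z WT at its downstream start and no other region. Nr6a1, the germ cell nuclear factor that represses pluripotency genes, had 400 bp of H2A.Z WT and 375 bp of H3K27me3.

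**Figure D3:**
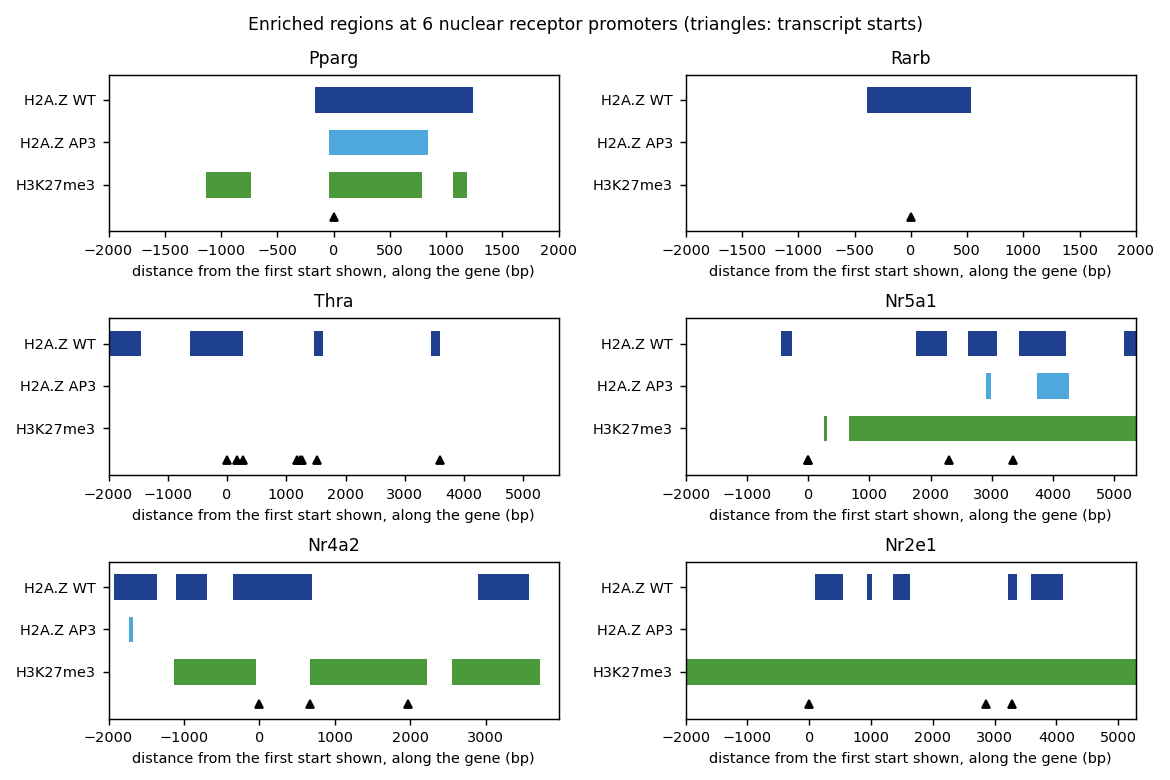
Regions of the 3 libraries at 6 receptor promoters, as distance in bp along the gene from the first start shown, with triangles for transcript starts; each row is 1 library and blocks are drawn to scale and end at the 2 kb limit of the window. At Pparg the 875 bp H2A.Z AP3 block lies within the 1400 bp H2A.Z WT block, Rarb and Thra show H2A.Z WT alone, and at Nr2e1 H3K27me3 fills the window.

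Where H2A.Z AP3 or H3K27me3 was found, H2A.Z WT was usually within the windows of the same group of starts. Starts with overlapping windows formed 90 groups at the 43 genes, of which 54 had H2A.Z WT, 26 had H3K27me3 and 18 had H2A.Z AP3. H2A.Z WT was at 24 of the 26 groups with H3K27me3, the exceptions being the downstream groups of Nr2e1 and Nr2f1, and at 17 of the 18 with H2A.Z AP3, the exception being Nr2f6. H2A.Z AP3 was at 12 of the 24 groups with H2A.Z WT and H3K27me3. Start groups were not counted over all genes. By gene, H2A.Z WT was at 95.2% of all genes with H3K27me3 and at 94.5% of all genes with H2A.Z AP3. In the 33 genes with more than 1 group, H2A.Z WT was at a single group in 17, which was the most upstream in 15 and a downstream group in Rarb and Nr5a2, and at more groups in 14. H2A.Z AP3 was at a single group in 13 of the 14 such genes that had it, the most upstream in 7 and a downstream group in Nr1h3, Nr2e3, Nr2f2, Nr2f6, Esr1 and Nr4a2. H3K27me3 was at a single group in 14 of 18, of which 11 were the most upstream.

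The receptor windows held 104 H2A.Z WT regions with a median length of 325 bp, 22 H2A.Z AP3 regions with a median of 162 bp and 79 H3K27me3 regions with a median of 325 bp. Of the 79 H3K27me3 regions 40 touched H2A.Z WT, so regions in the same windows often did not overlap. Of the H2A.Z AP3 regions 18 touched H2A.Z WT and 7 touched H3K27me3, and their midpoints were upstream of the nearest start in 12 and downstream in 10. By midpoint 7 were in introns, 5 in coding exons, 3 in untranslated exons, 3 in noncoding exons and 4 outside genes. The values of these overlaps and positions over all genes are not given here. The covered length of H2A.Z AP3 had a median of 175 bp over the receptors that had it and of 200 bp over all such genes. It was under 100 bp in 6 of the 17 receptors (Ppard, Nr2c2, Esr1, Esrrg, Pgr and Nr4a2) and in 19.3% of all genes with H2A.Z AP3.

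**Figure D4:**
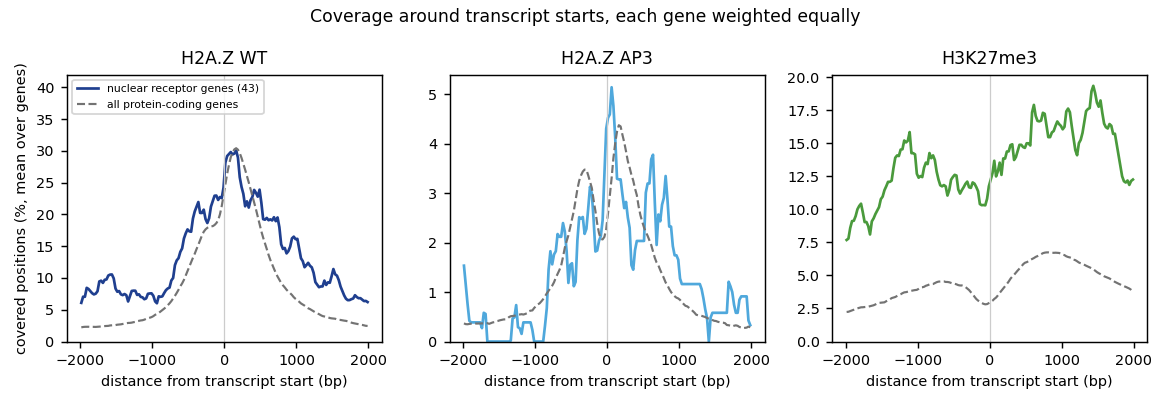
Share of positions covered by regions (y axis, %, mean over genes with each gene weighted equally) against distance from the transcript start (x axis, bp, negative upstream), for the 43 receptors (solid) and all protein-coding genes (dashed); each panel is 1 library with its own scale. H2A.Z WT peaks at about the same height in both sets (30.1% and 30.4%), whereas H3K27me3 is higher over the receptors throughout.

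Around the start, mean H2A.Z WT coverage peaked at a similar height at receptors and over all genes, and was higher at receptors further away. The profile averages over all starts of a gene, and receptors had more of them (median 5, against 2). A region at 1 start can thus count as the flank of a neighbouring start, and the part of this in the profile was not tested. Its coverage peaked between 150 and 175 bp downstream of the start, at 30.1% for the receptors and 30.4% for all genes. From 2 to 1 kb upstream the mean was 8.01% for receptors and 2.76% for all genes, and from 1 to 2 kb downstream 9.27% and 3.92%. The first kb on either side differed less, with 15.7% and 11.9% upstream and 21.5% and 18.4% downstream. H2A.Z WT covered more of the downstream than of the upstream kb in 25 receptors and less in 14. Genes were not counted by side over the whole set, whose means above were also higher downstream.

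H2A.Z AP3 peaked between 50 and 75 bp downstream at 5.14% for the receptors, and between 150 and 175 bp at 4.38% for all genes. With 17 genes behind it, the position of this peak rests on few regions. The upstream and downstream kb had means of 1.81% and 2.79% for receptors and 2.06% and 2.47% for all genes. More was downstream in 7 receptors and upstream in 8, which was likewise not counted over all genes. H3K27me3 had no peak at the start, and its highest coverage at receptors was 19.3% between 1425 and 1450 bp downstream, against 6.75% between 800 and 825 bp for all genes.

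CpG content is known to go with both H2A.Z and Polycomb marks. The highest count of CpG dinucleotides in 1001 bp around any start had a median of 72 in receptors (range 9 to 157) and of 47 in all genes. Receptors had more starts (median 5, against 2) from which this highest count was taken. The median was 78.5 in receptors with H3K27me3 and 68 in all genes with it. It was 66 in receptors with H2A.Z WT and no H3K27me3, and 58 in all such genes. Receptors with H2A.Z AP3 had 85 and those with H2A.Z WT and no H2A.Z AP3 had 63, without values over all genes. The part of CpG content in the counts above was not tested.

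The chromosome moved with the H2A.Z AP3 calls. Over all genes H2A.Z AP3 was at 46.8% of those on chromosomes 6 and 8 and at 20.5% of the others. The 4 receptors on these chromosomes, Pparg, Nr2c2, Nr2f6 and Nr3c2, all had H2A.Z AP3, and 13 of the other 39 had it (33.3%, interval 20.6 to 49.0). Without these chromosomes the H2A.Z AP3 length equalled 6.80% of the H2A.Z WT length at receptors and 10.7% over all genes. The part of the chromosome in the values of Pparg and Nr2f6, which had the highest ratios, was not tested.

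**Figure D5:**
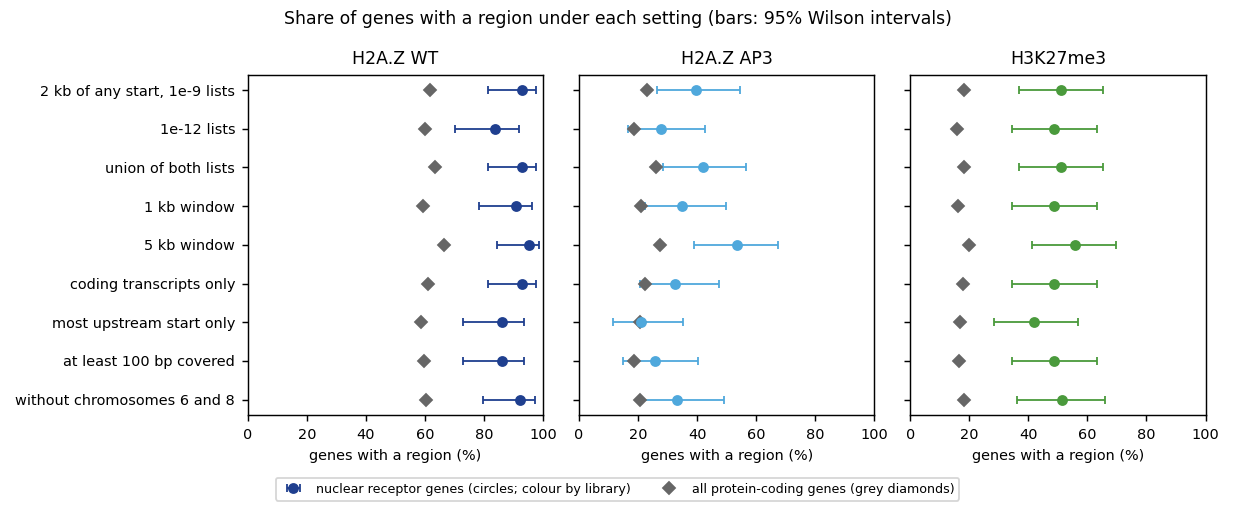
Share of genes with a region (x axis, %) in each library under 9 settings of list, window and start, for the 43 receptors (circles with 95% Wilson intervals, counting error only) and all protein-coding genes (grey diamonds). H2A.Z WT stays between 83.7% and 95.3% and H3K27me3 between 41.9% and 55.8%, while H2A.Z AP3 moves from 20.9% with the most upstream start to 53.5% with windows of 5 kb.

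Genes that work with the receptors were taken from lists of coregulators and of enzymes that make or remove ligands. Over all protein-coding genes, as above, H2A.Z WT was at 61.7%, H2A.Z AP3 at 23.2% and H3K27me3 at 18.2%. Among 12 genes of retinoid supply and removal, H2A.Z WT was at 11, H3K27me3 at 9 and H2A.Z AP3 at 4. Cyp26a1, a retinoic acid hydroxylase induced through its own DR5 elements, had 2325 bp of H2A.Z WT, 850 bp of H2A.Z AP3 and 2975 bp of H3K27me3. Cyp26b1 had 2575, 100 and 2969 bp, the binding protein gene Crabp1 had 2025, 250 and 2630 bp, and Rdh10, which makes retinal, had 650, 425 and 480 bp. Aldh1a2, Aldh1a3 and Dhrs3 had H2A.Z WT (1000, 2663 and 2075 bp) and H3K27me3 (2175, 2475 and 1000 bp) and no H2A.Z AP3, and Aldh1a1 had no region.

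Of 13 coregulators, H2A.Z WT was at 10, H2A.Z AP3 at 3 (Ncoa2, Nrip1 and Hdac3) and H3K27me3 at 2, Ncoa1 with 525 bp and Crebbp with 75 bp. Of 10 genes of other ligand metabolism, H2A.Z WT was at 6, H3K27me3 at 3 and H2A.Z AP3 at 1. Dio3, which inactivates thyroid hormone, had 2050 bp of H2A.Z WT, 25 bp of H2A.Z AP3 and 3013 bp of H3K27me3. Cyp24a1, which inactivates vitamin D, had 1675 bp of H2A.Z WT and 3106 bp of H3K27me3, and Hsd11b2, which inactivates glucocorticoids, had 850 and 825 bp, neither with H2A.Z AP3. The counts of H2A.Z AP3 and H3K27me3 at coregulators are near the shares over all genes.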

How the data were processed

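ChIP-Seq regions of 3 mouse ESC libraries were used, grouped by what the labels give as genotype and antibody. The authors aligned reads to mm9 (Bowtie 0.12.3 in the submitters' processing notes) and counted them in bins of 25 bp. They called bins enriched over input with a Poisson model at 1e-9, per library without pooling. The paper states that bins also had to reach a minimum fold over input. The deposited lists hold start and end coordinates alone, on no normalized scale, and depth is unknown, so Wilson intervals (95%) cover counting error only. A further list per library, named 1e-12, was an alternative.

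Regions were intersected (at least 1 bp) with windows of 2 kb on each side of all GENCODE vM1 transcript starts on mm9. Sequence was read from that assembly. Python 3.11.15, NumPy 2.4.6, SciPy 1.17.1 and Matplotlib 3.10.9 were used, and the procedures were tested on simulated data. All 43 members, every H2A.Z AP3 region and the 3 longest regions of the other libraries in member windows were named. Members and lists were chosen with earlier results of these data known. Alternatives changed the list, window, starts, minimum length and chromosomes. The input and aligned reads were not analysed here.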

Additional observations from a re-analysis of the deposited data

Results flagged for a closer look

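An H2A.Z AP3 region of 175 bp at Thrb (chr14:18492726-18492900, 661 bp upstream of the start) was present in the 1e-12 list and outside the 1e-9 list, which the values above do not use. Thrb is the 1 receptor without an H2A.Z AP3 region at 1e-9 that gained one from the 1e-12 list. The lists were therefore not strictly nested, and 3 H2A.Z WT regions (Nr2e1, Rara and Rxrg) and 1 H3K27me3 region (Rxra) of receptor windows were likewise found at 1e-12 alone, all at receptors that already carried a region of that library.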

How the results depend on the processing

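Of 47 alternative values, 44 stayed within the main interval or within 1.5 times the main length ratio. The others were all for H2A.Z AP3: 20.9% of receptors (20.8% of all genes) and 24.3% of receptors with H2A.Z WT (33.0% of all such genes) with the most upstream start alone, and 25.6% of receptors (18.7% of all genes) when at least 100 bp was required. The cause of these shifts was not tested. The main intervals are wide and the alternatives reuse the same genes, so a value within them says little about stability. H2A.Z AP3 at 27.9% with the 1e-12 lists (18.8% of all genes) counted as within. So did 53.5% with windows of 5 kb (27.3% of all genes). H2A.Z WT calls held in all 7 alternatives of list, window, starts and length for 33 of 40 receptors, H3K27me3 calls for 17 of 22, and H2A.Z AP3 calls for 5 of 17 (Ppara, Pparg, Rora, Nr2c1 and Nr3c2). At 1e-12 the H2A.Z WT calls of Rarg, Nr1d1, Nr1d2 and Esrra, the H3K27me3 call of Nr3c1, and the H2A.Z AP3 calls of Nr2c2, Nr2f6, Esr1, Esrrg, Pgr and Nr4a2 were lost. No paired analysis was possible because each group had 1 library and the labels give no replicate numbers.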

Other observations

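Regions also lay in the gene bodies beyond the windows. H2A.Z WT had 90 such regions in 25 receptors, H2A.Z AP3 had 9 in 7 and H3K27me3 had 35 in 13. The same was not counted over all genes, so these counts do not set the receptors apart. Gene length, which bears on them, ran from 4336 bp at Nr1h2 to 734461 bp at Rora. Vdr had the most for H2A.Z WT, with 12, and also 3 of the 9 for H2A.Z AP3 although none of its windows had an H2A.Z AP3 region. Nr5a1 had 7 H2A.Z WT, 1 H2A.Z AP3 and 6 H3K27me3 regions there, Nr2f2 had 6 H3K27me3 regions and none of the other libraries, and Ppard and Hnf4a had 6 H2A.Z WT regions each and none of the others.

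Several receptor genes are neighbours. Thra, Nr1d1 and Rara lie on chromosome 11, with Thra and Nr1d1 on opposite strands and overlapping at their 3′ ends, and none of them had H2A.Z AP3 or H3K27me3 within 2 kb of a start. Rarb, Thrb and Nr1d2 lie on chromosome 14, where Thrb alone had H3K27me3. The covered lengths of H2A.Z WT in the first set were 1749 bp at Thra, 25 bp at Nr1d1 and 450 bp at Rara, and in the second 925 bp at Rarb, 1450 bp at Thrb and 25 bp at Nr1d2.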
